A study of Mus musculus with 6 samples.

Results

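The cartilage-like fibroblasts of the mouse aortic root and ascending aorta were a small set of cells that carried transcripts such as Comp, Chad and Cilp2 on top of a fibroblast profile. Comp was found in 92.9% of these cells, Chad in 53.5% and Cilp2 in 34.8%. The cells were selected on 8 transcripts. A cell had to hold at least 20 Dcn and fewer than 5 Myh11 UMIs (unique molecular identifiers, each marking 1 captured transcript) per 10000 UMIs, and a UMI of at least 3 of the 6 genes Chad, Comp, Cilp2, Ucma, Chil1 and Angptl7. Of the 24972 cells that passed the filters, 666 met this rule (2.67%), and they were 5.11% of the 13043 cells that met the Dcn and Myh11 limits. The other 12377 cells within these limits, called other fibroblasts here, are the comparison throughout.

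The cells came from single-cell RNA sequencing of 6 female mice of strain 129SVE at 16 weeks of age, made to study Loeys-Dietz syndrome (LDS), an inherited aneurysm disorder of TGF-β signaling. The labels list 4 control mice (CTL), of which 2 were Tgfbr1+/+ and 2 were Tgfbr1+/+; Wnt2CRE; EGFP-L10a. The remaining 2 mice (LDS) were Tgfbr1M318R/+, heterozygous for a missense allele of a TGF-β receptor. In the reporter mice, Cre under the Wnt2 promoter, as the labels spell it, switches on a green fluorescent ribosomal protein that marks cells of the cardiac neural crest (CNC).

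All cells sit in a single matrix, in which the barcodes end in a library number (1 to 6). No file pairs these numbers with mice, so no library has a genotype and LDS and control mice were not compared. Values are given for libraries 1 to 6 in that order, or as median and range, without p-values. Libraries 1, 3, 4 and 5 shared 638 to 1101 barcode sequences with each other and libraries 2 and 6 shared 244, whereas the other pairs shared 2 to 8. After the filters, a pair of libraries shared 0 to 13 sequences. Of the 666 cells, 57 had a sequence that was also found in another library, and a single sequence met the rule in both of its libraries (3 and 5). The share of these cells and the counts of genes are therefore also given without the shared sequences and for each set of libraries alone.

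Chondrocytes build cartilage from a collagen II fibril with collagens IX and XI, and fill it with aggrecan bound to hyaluronan through link proteins. Tendons, ligaments and the fibrous skeleton of the heart carry fibrocartilage, in which fibroblast-like cells under compression make part of this matrix beside collagen I. In the heart, cartilage-like matrix genes are known from the valve leaflets and the hinge region where the leaflets join the aortic root, and Sox9 and Scx take part in valve development.

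The cells were found in every library. Libraries 1 to 6 held 59, 92, 181, 183, 123 and 28 of them, from 25659883, 28752044, 34679925, 38105145, 34824983 and 18218282 UMIs in filtered cells. They made up 4.22% (95% exact binomial interval 3.23% to 5.41%), 4.97% (4.03% to 6.06%), 6.07% (5.24% to 6.99%), 4.61% (3.98% to 5.31%), 6.21% (5.19% to 7.36%) and 3.25% (2.17% to 4.66%) of the cells within the Dcn and Myh11 limits, with a median of 4.79%. The share was lowest in library 6 and highest in library 5, and the intervals of these libraries did not overlap. Such intervals, and the limits given below for counts of 0 (3 counts of the total, on cells with a UMI and not on cells that express a gene), cover counting error only. The share over all libraries was 4.83% without the shared barcode sequences, 5.29% in libraries 1, 3, 4 and 5 and 4.42% in libraries 2 and 6.

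**Figure D1:**
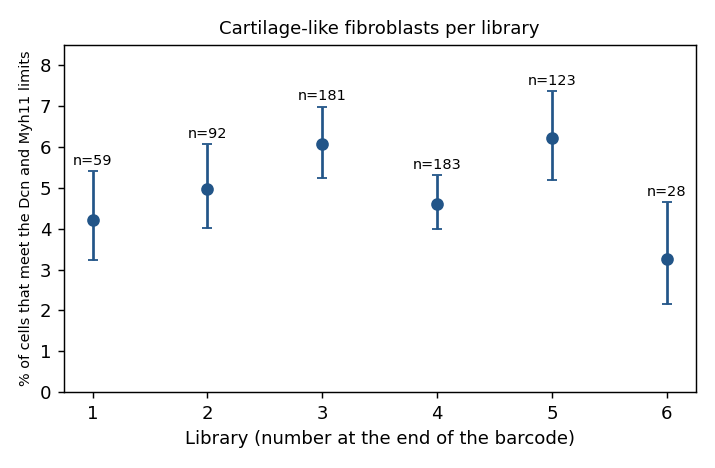
Share of cells within the Dcn and Myh11 limits that met the rule for cartilage-like fibroblasts, in %, for each of the 6 libraries. Points are shares, bars are 95% exact binomial intervals and n is the number of these cells, and the shares run from 3.25% in library 6 to 6.21% in library 5.

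The cartilage-like fibroblasts were deeper than the cells they are compared with. Their median depth was 9202, 12262.5, 8149, 7467, 6263 and 12709.5 UMIs per cell, against 6144, 8901, 6199.5, 5301, 5349 and 9088.5 UMIs in other fibroblasts, and so higher in all 6 libraries. A rule that asks for UMIs of several genes selects deep cells, and with each cell thinned to 3000 UMIs before the rule was applied, the share within the limits was 3.26%. The median mitochondrial share was 2.35, 1.88, 1.73, 1.65, 1.75 and 3.00% of UMIs, lower than in other fibroblasts in 5 of 6 libraries.

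The genes of the rule are a description of the cells, not a finding. Comp, a pentameric thrombospondin of cartilage and tendon matrix, was found in 92.9% of the cells, and Angptl7, a secreted angiopoietin-like protein, in 88.3%. Chil1, a chitinase-like glycoprotein, was found in 61.3%, and Chad, a leucine-rich protein that links collagen to cell surfaces, in 53.5%. The rarest were Ucma, a protein of the growth plate, at 35.7% and Cilp2, a protein of the cartilage intermediate layer family, at 34.8%. The most frequent set was Comp with Chil1 and Angptl7 alone (136 cells, 20.4%), followed by Chad with Comp and Angptl7 (83 cells, 12.5%). Of the 232 cells with Cilp2, 79.3% also held Chad, whereas 39.5% of the 238 cells with Ucma did.

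Chad stood at 2525, 446, 601, 753, 1587 and 1567 CPM (its UMIs as a share of all UMIs summed over the cells, on the usual CPM scale) in the cartilage-like fibroblasts of libraries 1 to 6. Ucma stood at 28.1, 117, 300.2, 331, 158 and 5.73 CPM, so it was scarce in libraries 1 and 6, where Chad was not. Across the cells within the limits, 6047 held none of the 6 genes, 4722 held 1, 1608 held 2, 374 held 3, 170 held 4, 93 held 5 and 29 held all 6. Just inside the limit, cells with exactly 3 genes had a median over libraries of 295 CPM for Chad, 1855 for Comp, 57.3 for Cilp2, 94.2 for Ucma, 242 for Chil1 and 456 for Angptl7. Just outside, cells with exactly 2 had 63.4, 906, 1.85, 12.6, 119.8 and 432 CPM. The number of rule genes sets these levels in part, so the 2 sets of cells are only described.

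Each gene of the rule was also measured in cells chosen without it, by a UMI of at least 3 of the other 5. Chad was found in 41.6% of such cells and in 4.05% of the rest, at median depths of 8298 and 6033.5 UMIs, with a median log2 ratio of summed expression of 4.86 (range 3.48 to 6.85). Cilp2 was found in 29.9% and 0.620%, with a log2 ratio of 5.96 (4.83 to 6.68). The median ratio was 3.40 for Comp, 3.94 for Ucma, 2.57 for Chil1 and 2.97 for Angptl7. Chad, Comp, Cilp2, Chil1 and Angptl7 were higher in all 6 libraries, whereas Ucma had no UMI in the 27 cells so chosen in library 6. The 6 genes were put in the rule together and these cells share their choice with it, so the values describe the rule and are no finding. The smallest library held 10 such cells for Comp, 12 for Angptl7 and 19 for Chil1.

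RNA that leaks into droplets gives UMIs in cells that do not make a transcript. Smooth muscle cells served as a type that should lack the rule genes. They were chosen by at least 5 Myh11 and fewer than 20 Dcn UMIs per 10000, so some Dcn was allowed. Their median depth was 7231 UMIs against 8145.5 in the cartilage-like fibroblasts. A Chad UMI was found in 0.482% of 9744 smooth muscle cells and a Cilp2 UMI in 0.236%. For Comp, the shares were 4.62% in smooth muscle cells and 7.91% of 468 endothelial cells, and for Angptl7 they were 1.44% in smooth muscle cells and 9.02% of 499 leukocytes. After thinning to 3000 UMIs, Chad was found in 44.4% of the cartilage-like fibroblasts and 0.205% of smooth muscle cells, and Cilp2 in 24.4% and 0.0973%. Angptl7 and Comp were also found in 29.0% and 21.8% of other fibroblasts.

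Outside the rule genes, the transcripts that were higher in these cells included genes of cartilage and tendon matrix, Wnt antagonists and an enzyme that degrades retinoic acid. UMIs were summed over the cartilage-like and over the other fibroblasts of each library, and a gene was counted as higher when its log2 ratio was at least 1 in all 6 libraries. Of 8011 genes with a median of at least 10 CPM, 43 were counted as higher (0.537%) and 30 as lower (0.374%), with a log2 ratio of -1 or below in all 6. Since the rule chose the cells within the same comparison, nothing is read from these percentages. The median log2 ratio over the 8011 genes was -0.08. At any size, 453 genes were higher and 1202 were lower in all 6 libraries. The counts rest on every library passing, and without library 1 or library 6 the lower genes numbered 48 and 54. Leaving out the shared barcode sequences gave 39 higher and 46 lower genes, libraries 1, 3, 4 and 5 alone gave 76 and 82, and libraries 2 and 6 alone gave 84 and 80. With at least 2 rule genes in place of 3, 9 genes were higher and 2 were lower. Of 37 counted genes that the naming rule takes in, Cyp26a1, Spp1, 1500015O10Rik, Scx, Kcnj15, Thbs1, Prg4 and Ccl11 were counted under all 17 settings run gene by gene. These settings do not include the changed CPM limits or the removal of the upper limits on genes and UMIs. The other 29 were not counted with at least 2 rule genes.

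Cyp26a1, which encodes an enzyme that breaks down retinoic acid, had the largest ratio of the genes counted as higher. It lies at chr19:37697798-37701536 of mm10 (ENSMUSG00000024987). In the cartilage-like fibroblasts of libraries 1 to 6 it stood at 36.8, 30.5, 108, 69.2, 79.8 and 155 CPM, against 0.236, 0.505, 0.482, 0.378, 1.06 and 0.263 CPM in other fibroblasts. The 2 sets of values did not come near each other in any library, and the median log2 ratio was 6.06 (range 5.04 to 7.11). Cyp26a1 passed the CPM limit through the cartilage-like fibroblasts (74.5 against 0.430 CPM in the median). A single cell held 31 of the 54 Cyp26a1 UMIs in library 6, and another held 13 of 21 in library 1. A Cyp26a1 UMI was found in 19.4% of the cartilage-like fibroblasts, 0.250% of other fibroblasts and 0.0103% of smooth muscle cells, whose median depths were 8145.5, 6021 and 7231 UMIs. Thinning gave 12.9%, 0.125% and 0.0108%.

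Spp1 (osteopontin, ENSMUSG00000029304, chr5:104435118-104441050), a secreted phosphoprotein of bone and of calcifying or inflamed tissue, came next. It stood at 2879, 1050.2, 275, 559, 1501 and 1223 CPM in the cartilage-like and 43.7, 12.1, 34.2, 13.9, 69.0 and 35.2 CPM in other fibroblasts, with a median log2 ratio of 5.18 (range 3.00 to 6.39). Library 1 was highest and library 3 lowest. The transcript was uneven from cell to cell: its 5787 UMIs lay in 146 of the 666 cells (21.9%), and a single cell held 756. Leukocytes, which are known to make osteopontin, had a UMI in 10.2% of cells and smooth muscle in 0.595%. 1500015O10Rik, the gene of the secreted peptide precursor augurin, was more even, with a UMI in 83.6% of the cells and 23.4% of other fibroblasts. It stood at 3136, 1653, 2595, 2676, 5733 and 4814 CPM against 146 to 341 CPM, with a log2 ratio of 4.01 (range 2.83 to 5.03).

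**Figure D2:**
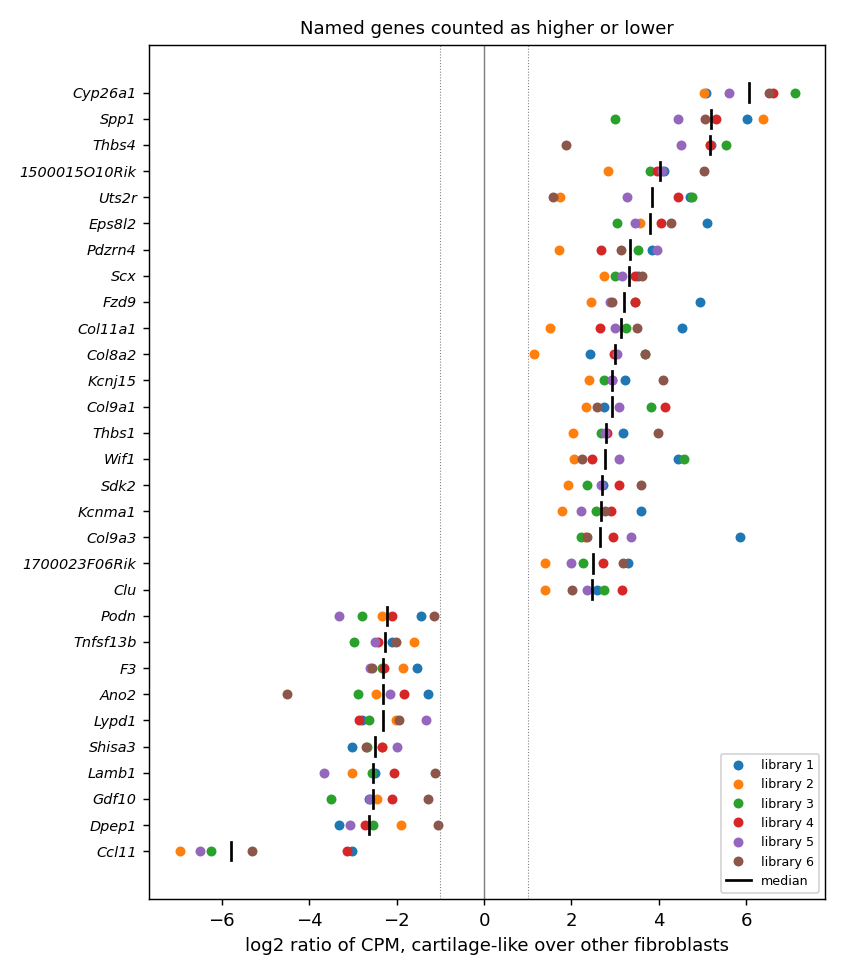
Log2 ratio of summed expression (CPM) in cartilage-like over other fibroblasts for the 20 genes with the largest and the 10 genes with the smallest median ratio among those counted as higher or lower. Each point is 1 of 6 libraries, black bars are medians and dotted lines mark ratios of 1 and -1, and Cyp26a1 (6.06) and Ccl11 (-5.78) stand at the ends.

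Several of the higher genes belonged to cartilage matrix. Of 22 collagens, proteoglycans and linker proteins of cartilage in the files, 18 had a UMI in the cells and 10 passed the limit of 10 CPM. Of these 10, 5 were higher and none was lower, and their median log2 ratio was 2.06. The limit is set on the mean of both kinds of cells, so a gene can pass through 1 of them. Of the 5 higher genes, 4 passed through the cartilage-like fibroblasts, namely Col11a1 (values below), Col9a1 (19.9 against 1.99 CPM), Col9a3 (20.4 against 2.15 CPM) and Hapln1 (23.1 against 4.33 CPM). The count and the median therefore depend on the limit, and the median is not set beside that of all genes. The summed level of the whole list was 7789, 3465, 1920.0, 2541, 4988 and 2308 CPM, against 1681, 949.6, 645, 679, 979.6 and 515 CPM in other fibroblasts, and the fifth higher gene, Cytl1, was the most abundant.

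Col11a1 (ENSMUSG00000027966, chr3:114030540-114220718), a chain of the collagen that nucleates cartilage fibrils, stood at 229.9, 21.8, 52.6, 46.8, 85.8 and 100.2 CPM. Other fibroblasts had 5.25 to 10.2 CPM, and the median log2 ratio was 3.13 (range 1.51 to 4.53). Library 1 was highest and library 2 lowest. Col9a1 and Col9a3, chains of the collagen on the surface of these fibrils, had ratios of 2.92 (range 2.34 to 4.13) and 2.65 (range 2.21 to 5.86). Without library 3, 4 or 6, and in libraries 2 and 6 alone, Col9a1 was no longer counted as higher. Its ratio was above 2 in each library, so the limit it missed was that of 10 CPM. Hapln1, the link protein that ties aggrecan to hyaluronan, stood at 73.7, 21.8, 24.5, 17.0, 33.8 and 20.0 CPM with a ratio of 2.07 (range 1.67 to 4.04). Cytl1, a secreted cytokine-like protein of cartilage, stood at 6738, 3124, 999, 1981, 4027 and 1315 CPM, and its ratio of 2.05 (range 1.04 to 2.37) was lowest in library 3. Its count as higher was lost with at least 2 or at least 4 rule genes, after thinning, when other fibroblasts were weighted to the same depth and without the cells with the most UMIs, with median ratios of 1.29, 2.22, 2.28, 1.89 and 1.87.

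Apart from Cytl1, these transcripts were found in a minority of the cells. A Col11a1 UMI was found in 26.1% of the cartilage-like fibroblasts, 3.76% of other fibroblasts and 0.0821% of smooth muscle cells, and thinning gave 14.6%, 2.01% and 0.0216%. Col9a1 was found in 14.9%, 1.07% and 0.185%, and Hapln1 in 15.6%, 2.08% and 0.411%. Cytl1 was found in 53.5% of the cartilage-like and 24.9% of other fibroblasts, with 3.69% of smooth muscle and 12.8% of endothelial cells.

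The collagen and proteoglycan that define hyaline cartilage were found in few of the cells. Col2a1, the main fibrillar collagen of cartilage, was found in 12 of the 666 cells (1.80%), with 128 UMIs, of which 98 lay in 2 cells of library 1. It had 2 UMIs in all other fibroblasts, and library 3 had none in its 181 cells, which allows a share of up to 1.66%. Acan, the core protein of aggrecan, was found in 33 cells (4.95%), against 0.0808% of other fibroblasts. Its median log2 ratio was 4.24 with a lowest value of 2.75, higher in all 6 libraries, at a level that did not pass 10 CPM. Smooth muscle cells held Acan in 4.63% of cells, and the intervals of the 2 shares (3.43% to 6.89% and 4.22% to 5.06%) overlapped. After thinning, the Acan shares were 2.44% and 2.41%. Matn1, a cartilage matrilin, had no UMI in the 666 cells, which allows a share of up to 0.450%, and neither did Col10a1, the collagen of hypertrophic cartilage.

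In library 1, single cells held many of the UMIs of some cartilage genes. Cytl1, the most abundant of the list in that library, lay in 46 of the 59 cells, with at most 431 of its 3840 UMIs in 1 cell. A cell with 23000 UMIs and 4 rule genes held 20 Acan, 42 Col9a3, 83 Col11a1, 20 Col11a2 and 26 Hapln1 UMIs, but no Col2a1. Another cell of that library held 63 Col2a1 UMIs with none of Col11a1 and Col11a2, and another 172 UMIs of Ibsp, a bone sialoprotein. These cells were singled out after their values were seen. When the cell with the most UMIs of a gene was left out for each gene and library, an alternative chosen after the data were seen, 24 genes were higher, and Col9a1, Col9a3 and Cytl1 were no longer among them, whereas Col11a1 and Hapln1 were. The median ratios of the 3 genes were then still 2.50, 2.35 and 1.87.

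Several cartilage transcripts were more frequent in cells with more rule genes. Col11a1 was found in 15.2% of cells with 3 rule genes, 37.6% with 4 and 43.4% with 5 or 6, at median depths of 8259.5, 7852 and 8173 UMIs. Hapln1 was found in 9.09, 20.0 and 29.5%, and Acan in 2.41, 4.71 and 13.1%. Cyp26a1 was found in 7.22, 26.5 and 46.7%, and Scx in 27.5, 50.0 and 55.7%. Other genes of the cartilage list did not follow these steps in frequency, among them Cytl1 (52.1, 57.1 and 52.5%, at 2254, 3110.4 and 3124 CPM), Matn3 (2.14, 0.588 and 2.46%) and Cilp (10.2, 8.24 and 16.4%). These values are pooled over libraries, and library 3 held 37 of the 93 cells with 5 rule genes and 21 of the 29 with 6. The rule genes chose the cells, so the rule may set part of these differences and they are only described.

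Among transcription factors of chondrocytes, Sox9 was present and a single factor passed the limit. Of 20 such factors, 10 passed 10 CPM, and 1 of them was higher, with a median log2 ratio of 0.36. The higher factor was Runx1, which acts early in cartilage and blood development, at 146, 67.2, 125, 134, 209 and 115 CPM and a ratio of 1.22 (range 1.01 to 1.65). Its count as higher was lost with at least 2 rule genes, with equal weight for each cell, with a prior of 2 UMIs and without the cells with the most UMIs. Sox9, the factor that turns on Col2a1 and Acan, stood at 267, 295, 392, 356, 508 and 232 CPM against 178, 196, 154, 229, 245 and 144 CPM in other fibroblasts. Its level was above theirs in all 6 libraries, but its ratio of 0.66 (range 0.58 to 1.35) stayed under 1 in 4 of them. Sox5 and Sox6, the partners of Sox9 in chondrocytes, had median ratios of 0.55 and 1.15, and Sox6 did not pass 10 CPM. Trps1, a repressor of the growth plate, had 1.03 (range 0.52 to 1.63), and Runx2, the bone factor, had -0.04 below the CPM limit. No UMI of Foxa2 or Nkx3-2 was found. The summed level of the 20 factors was 1823, 1306, 1512, 1613, 1801 and 1466 CPM, led by Zbtb20.

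Tendon genes were split. Of 23 genes of tendon, ligament and fibrocartilage, 16 passed, 4 were higher (Scx, Thbs4, Prg4 and Fmod) and none was lower, with a median log2 ratio of -0.01. Scx (ENSMUSG00000034161, chr15:76457452-76459458), the transcription factor of tendon progenitors, stood at 109, 106, 132, 97.7, 118 and 80.2 CPM against 8.62, 15.5, 16.3, 8.56, 12.8 and 5.26 CPM, an even ratio of 3.31 (range 2.74 to 3.61). It was found in 38.4% of the cartilage-like and 3.84% of other fibroblasts, and in 20.6% of smooth muscle cells and 1.00% of leukocytes. Thbs4 (ENSMUSG00000021702, chr13:92751590-92794818), a thrombospondin of tendon matrix, stood at 70.2, 65.4, 198, 120.1, 70.1 and 5.73 CPM with a ratio of 5.17 (range 1.87 to 5.54). Thbs4 passed the CPM limit through the cartilage-like fibroblasts (70.1 against 1.95 CPM in the median). Library 6 rests on 2 UMIs in a single cell, and in library 2 a single cell held 58 of 75 UMIs. Its count as higher was lost with at least 2 rule genes, with a prior of 2 UMIs and without the cells with the most UMIs. Tnmd and Mkx, late tendon genes, were under 10 CPM, with 17 and 14 UMIs in the 666 cells. Col14a1 (-1.62) and Tnxb (-1.26), which were not counted as lower, stood below other fibroblasts in all 6 libraries.

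Small leucine-rich proteoglycans, which coat collagen fibrils, also went both ways. Of 14, 11 passed, with 2 higher, 1 lower and a median of 0.40. Prelp stood at 1418, 1115, 1902, 1916, 1899 and 1151 CPM (log2 ratio 1.76 (range 1.37 to 2.04)) and Fmod, fibromodulin, at 669, 228, 549, 436, 591 and 908 CPM (1.74 (range 1.41 to 1.86)). Podn, podocan, was the lower gene, at 42.1, 13.1, 14.1, 23.8, 9.67 and 63.0 CPM against 115, 67.3, 98.4, 103, 101 and 142 CPM (-2.21 (range -3.31 to -1.15)), and its count was lost with at least 2 rule genes, with equal weight for each cell and without shared barcode sequences. Epyc, a proteoglycan of cartilage, was higher in 5 of 6 libraries, with 191, 89.8, 605, 272, 648 and 590.0 CPM and a ratio from -0.11 in library 2 to 5.03 in library 6. Kera was found in 30 cells of 3 libraries, and Lum, the most abundant of the list, had a ratio of 0.61.

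Among genes of hyaluronan binding and lubrication, 8 of 14 passed, 2 were higher (Prg4 and Hapln1) and none was lower, with a median of 0.39. Prg4 encodes lubricin, the surface lubricant of joints and tendons, and stood at 644, 358, 3085, 1277, 1099.8 and 504 CPM against 114, 119, 999, 159, 262 and 107 CPM, a log2 ratio of 2.14 (range 1.59 to 3.00). It was highest in library 3 in both kinds of cells. Matricellular proteins, which act between cells and matrix, had 17 of 20 genes passing, with Thbs1 and Thbs4 higher, none lower and a median of -0.17. Hapln1 and Thbs4 passed the CPM limit through the cartilage-like fibroblasts, as given above. Thbs1, a thrombospondin that can activate latent TGF-β, stood at 762, 298, 495, 687, 1056 and 567 CPM with a ratio of 2.80 (range 2.04 to 3.98). Spon2 (-2.71) and Smoc2 (from -2.49 to -0.94 over the libraries) stood below other fibroblasts in all 6 libraries without being counted as lower.

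Of the collagens and elastic fibre genes, which build the main load-bearing parts of the aortic wall, 1 was past the limit. Of 19 fibril-forming and associated collagens, 18 passed, Col8a2 alone was higher and none was lower, with a median of -0.31. At any size, 4 stood above other fibroblasts in all 6 libraries, among them Col12a1 (1.62 (range 0.37 to 2.71)). A further 6 stood below them, beside 453 and 1202 of all 8011 genes. The summed level was above theirs in libraries 1 (15425 against 13371 CPM) and 6 (20657 against 16836 CPM) and below in the others. Col8a2, a short-chain collagen that forms sheets, stood at 64.9, 19.2, 75.2, 66.5, 95.5 and 100.2 CPM (log2 ratio 3.00 (range 1.13 to 3.69)). It passed the CPM limit through the cartilage-like fibroblasts (70.9 against 8.35 CPM in the median). Col1a2 had a ratio of -0.61 (range -0.70 to 0.11), lower in 4 of 6 libraries. Of 22 genes of the elastic fibre, 20 passed, and none was higher or lower, with a median of -0.41. At any size, 3 stood above other fibroblasts in all 6 libraries, among them Loxl2 (1.01 (range 0.61 to 1.47)). A further 5 stood below them, beside 453 and 1202 of all 8011 genes. Eln had a ratio of -0.86, Ltbp2 of 1.51 and Emilin2 of -3.28. Of 27 proteases and inhibitors, 21 passed and none was counted either way (median -0.53). At any size, 8 of the 21 stood below other fibroblasts in all 6 libraries, beside 1202 of all 8011 genes. The lowest of these 8 was Serping1 with -1.15. Timp3, an inhibitor of matrix proteases, alone stood above other fibroblasts in all 6 libraries, with 0.67 (range 0.55 to 0.80), beside 453 of all 8011 genes.

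Genes of mineralisation gave 1 higher gene (Spp1) and 1 lower gene (Sost) among 13 of 23 that passed, with a median of -0.11. Mgp, which keeps calcium salts from settling in vessels and cartilage, made up 28752, 30999, 17414, 27975, 25296 and 15502 CPM, and its log2 ratio of 0.65 (range -0.16 to 1.15) was positive in 5 of 6 libraries. Tnfrsf11b, the osteoprotegerin gene, had 1.58 (range 0.31 to 2.86). Sost, an antagonist of Wnt signaling made by osteocytes, stood at 36.8, 11.3, 7.34, 8.14, 16.9 and 2.86 CPM against 87.4, 24.6, 25.6, 30.4, 37.3 and 36.6 CPM (-1.49 (range -3.14 to -1.09)). It passed the CPM limit through other fibroblasts (33.5 against 9.74 CPM in the median). Its count as lower was lost with at least 2 rule genes, without high doublet scores, with equal weight for each cell and without shared barcode sequences. Bone markers were found in few cells, though for 2 of them in a larger share than among other fibroblasts. Sp7, a factor of osteoblasts, was found in 24 of the 666 cells and 21 of the 12377 other fibroblasts, with a ratio of 2.95 (range 1.23 to 3.96) at a level that did not pass 10 CPM. Ibsp was found in 8 and 7 cells, and of its 297 UMIs 219 lay in library 1, 172 of them in a single cell, and 74 in library 6, against 96 UMIs in all other fibroblasts. The osteocalcin gene Bglap2 had no UMI.

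Of 27 genes of the Wnt pathway, 11 passed, 3 were higher (Wif1, Frzb and Fzd9) and none was lower, with a median of 0.09. Wif1 (ENSMUSG00000020218, chr10:121033960-121100650), which binds Wnt proteins outside the cell, stood at 1274, 1021, 766, 681, 613 and 1097 CPM against 58.5, 246, 31.9, 124, 72.0 and 232 CPM, a log2 ratio of 2.77 (range 2.05 to 4.57). It was found in 45.6% of the cartilage-like and 9.25% of other fibroblasts, in 21.1% of smooth muscle cells and in 1.00% of leukocytes. Frzb, another secreted antagonist, stood at 367, 277, 599, 518, 514 and 372 CPM (2.09 (range 1.60 to 2.32)), and Fzd9, a receptor, at 33.3, 14.0, 28.7, 25.1, 18.1 and 28.6 CPM (3.19 (range 2.44 to 4.94)). Fzd9 passed the CPM limit through the cartilage-like fibroblasts (26.9 against 2.10 CPM in the median). Not all antagonists went this way: Sfrp4 had -2.48 (range -4.07 to 0.16) and Sfrp1 values from -2.91 to -0.20, and neither was counted as lower.

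Among genes of the hedgehog and PTHrP pathways, 1 was past the limit. Of 12 such genes, 7 passed, none was higher and Gli1 was lower, with a median of -1.69. A gene can pass through 1 kind of cell, so the count and the median depend on the CPM limit. The median is therefore not set beside that of all genes. At any size, 5 of the 7 stood below other fibroblasts in all 6 libraries, beside 1202 of all 8011 genes. Smo (0.25) and Pth1r stood above them. Gli1, a transcription factor that hedgehog signaling turns on, stood at 17.5, 7.85, 6.73, 5.43, 14.5 and 8.59 CPM against 44.5, 22.7, 31.0, 36.1, 35.5 and 35.9 CPM (-1.69 (range -2.66 to -1.26)). It passed the CPM limit through other fibroblasts (35.7 against 8.22 CPM in the median). Hhip, also induced by the pathway, stood below other fibroblasts in all 6 libraries, with -2.37 (range -3.53 to -0.58). Pth1r, the receptor of PTHrP, stood at 70.2, 69.8, 124, 92.3, 99.1 and 206 CPM, above other fibroblasts in all 6 libraries with 1.87 (range 0.74 to 2.77), though under the limit of 1 in library 2. Its ligand Pthlh had -2.07 (range -4.15 to -0.19).

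The TGF-β pathway, which the LDS allele impairs, had a single gene past the limit. Of 28 of its genes, 27 passed, Inhbb alone was higher and none was lower, with a median of -0.09. Inhbb passed the CPM limit through the cartilage-like fibroblasts (15.0 against 5.35 CPM in the median). Tgfbr1 stood at 75.5, 41.9, 48.3, 47.5, 61.6 and 34.4 CPM and had a log2 ratio of 0.19 (range -0.30 to 0.64), and Tgfbr2 had -0.44 (range -0.76 to 0.01). Inhbb, a subunit of activin B, stood at 15.8, 11.3, 19.0, 14.3, 29.0 and 11.5 CPM (1.45 (range 1.12 to 1.70)), and its count as higher was lost with at least 2 or at least 4 rule genes, after thinning, when other fibroblasts were weighted to the same depth, with a prior of 2 UMIs, in libraries 2 and 6 alone and without the cells with the most UMIs. At any size, 9 of the 27 stood above and 6 below other fibroblasts in all 6 libraries, beside 453 and 1202 of all 8011 genes. Among 30 genes of the BMP pathway, 16 passed, none was higher and Gdf10 was lower (median -0.15). Fibroblast growth factors and their receptors (9 of 15 passed, median 0.24) and insulin-like growth factors with their binding proteins (8 of 10, median -0.60) had no gene counted either way. Igfbp6 (-2.22) and Igfbp5 (-1.16) stood below other fibroblasts in all 6 libraries.

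Among genes of adventitial fibroblasts, 2 were past the limit and both were lower. Of 17 such genes, 16 passed, none was higher, Ccl11 and Dpep1 were lower, and the median was -1.35. At any size, 11 of the 16 stood below other fibroblasts in all 6 libraries, beside 1202 of all 8011 genes, and none stood above them. Ccl11 (ENSMUSG00000020676, chr11:82057823-82062955), the chemokine eotaxin, stood at 1.75, 0, 1.22, 15.6, 1.21 and 0 CPM against 20.3, 53.6, 116, 140.1, 164 and 55.4 CPM, with a log2 ratio of -5.78 (range -6.95 to -3.01), the lowest of all genes counted. In libraries 2 and 6 it had no UMI. Ccl11 passed the CPM limit through other fibroblasts (85.7 against 1.22 CPM in the median). Dpep1, a membrane dipeptidase, stood at 47.4, 95.9, 77.7, 76.0, 90.6 and 338 CPM against 479, 357, 456, 505, 764 and 706 CPM (-2.64 (range -3.31 to -1.06)), and was least reduced in library 6. Its count as lower was lost with at least 2 rule genes and when other fibroblasts were weighted to the same depth. Pdgfra, the receptor that marks many fibroblasts, was found in 44.3% of the cells and 70.1% of other fibroblasts and had -1.34 (range -1.60 to -0.99), just short of the limit in library 2.

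Further genes were counted as lower. F3, which encodes tissue factor, the trigger of coagulation, stood at 272, 86.4, 137, 125, 85.8 and 135 CPM against 793, 311, 695, 612, 525 and 808 CPM (-2.32 (range -2.60 to -1.54)). Gdf10, a growth factor of the BMP family, had -2.53 (range -3.49 to -1.29), Lamb1, a laminin chain, -2.53 (range -3.65 to -1.12), and Tnfsf13b, the B cell factor BAFF, -2.27 (range -2.96 to -1.61). Shisa3 (-2.50), Lypd1 (-2.32) and Ano2 (-2.32) completed the 10 lowest. Lamb1, Tnfsf13b, Shisa3, Lypd1 and Ano2 passed the CPM limit through other fibroblasts. Medians in cartilage-like against other fibroblasts were 5.995 against 43.3 CPM for Lamb1 and 3.57 against 19.6 for Tnfsf13b. They were 4.48 against 33.6 CPM for Shisa3, 8.64 against 50.1 for Lypd1 and 2.43 against 18.9 for Ano2. After thinning Tnfsf13b, Ano2 and Shisa3 were not counted, and the first 2 neither when other fibroblasts were weighted to the same depth. Ano2 was not counted without shared barcode sequences, Gdf10 with equal weight for each cell and Lamb1 with a prior of 2 UMIs. Of 24 genes of complement and chemokines, 16 passed, Ccl11 alone was lower, and the median was -1.02. C1s1, a protease of the classical complement pathway, had -2.14 (range -2.86 to -0.83).

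Further genes counted as higher had no list in common. Clu, a secreted chaperone, stood at 2830.3, 1294, 6923, 6124, 2192 and 905 CPM (2.47 (range 1.40 to 3.16)). Ion channels were represented by Kcnj15, an inward rectifier (2.93 (range 2.41 to 4.09)), and Kcnma1, a calcium-activated potassium channel (2.66 (range 1.79 to 3.59)), the latter not counted with at least 2 rule genes, after thinning and in libraries 2 and 6 alone. Uts2r, the receptor of the vasoactive peptide urotensin, stood at 31.6, 5.23, 71.5, 38.7, 18.1 and 2.86 CPM (3.85 (range 1.58 to 4.75)), rested on 214 UMIs, of which library 6 held 1, and was not counted as higher with at least 2 rule genes, with a prior of 2 UMIs, without library 1, 3 or 4, in libraries 2 and 6 alone and without the cells with the most UMIs. Eps8l2 (3.80), Pdzrn4 (3.33), Sdk2 (2.70) and 1700023F06Rik (2.50) completed the 20 highest. Apart from Clu, the genes of this paragraph passed the CPM limit through the cartilage-like fibroblasts. Medians were 57.1 against 5.99 CPM for Kcnj15, 28.9 against 3.90 for Kcnma1 and 24.9 against 1.31 for Uts2r. They were 30.0 against 1.17 CPM for Eps8l2, 51.9 against 6.39 for Pdzrn4, 22.7 against 2.80 for Sdk2 and 26.0 against 4.24 for 1700023F06Rik. Pdzrn4 and 1700023F06Rik were not counted after thinning, and 1700023F06Rik and Col8a2 were not counted without the cells with the most UMIs.

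Genes counted as higher were also found among those of heart valves. Of 15, 14 passed and 5 were higher (Cytl1, Prg4, Fmod, Wif1 and Hapln1), beside 43 of all 8011 genes. Other lists hold all of these 5 genes too, and the median was 0.98. Hapln1 passed the CPM limit through the cartilage-like fibroblasts (23.1 against 4.33 CPM in the median). The count and the median therefore depend on the limit, and nothing is read from the count. The summed level of the whole list was 10704, 6904, 7117, 6367, 8288 and 6799 CPM against 2878, 2643, 2726, 2286, 2752 and 2689 CPM. Cytl1 made up 6738 CPM of it in library 1 and 999 CPM in library 3 of the cartilage-like fibroblasts. The lowest of the list were Pthlh (-2.07), below other fibroblasts in all 6 libraries, and Coch, with -0.92 (range -5.31 to 2.92). Tbx20, a factor of valve and heart muscle development, had 0.91 (range -0.18 to 1.77), with library 1 as the exception to a higher level. Of 29 transcription factors of heart development, 15 passed and none was counted either way (median 0.03). Gata4 stood at 15.8, 50.6, 47.7, 48.2, 35.0 and 45.8 CPM against 18.2, 31.1, 23.3, 31.1, 33.2 and 25.3 CPM, a log2 ratio of 0.66 (range -0.19 to 1.03) that was positive in 5 of 6 libraries, and Gata6 had 0.20 (range -0.12 to 0.30). Osr1 (-2.15) and Hoxa3 (-1.68) stood below other fibroblasts in all 6.

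Core fibroblast genes were not past the limit in either direction. All 10 passed 10 CPM, with a median of -0.29 and a summed level of 65449.6, 65317, 45487, 61457, 56255 and 55737 CPM, in which Mgp was the most abundant gene, against 57089, 55656, 42022, 52203, 46741 and 52902 CPM. Pdgfra (-1.34) and Serpinf1 (-0.58) stood below other fibroblasts in all 6 libraries and Lum above them. Lum was found in 99.8% of the cells, Col1a2 in 98.9% and Dpt in 77.0%. Immediate early and heat shock genes, which rise during tissue dissociation, had 25 of 25 genes passing and none counted, with 6 above and 0 below other fibroblasts in all 6 libraries at any size, beside 453 and 1202 of all 8011 genes (median 0.15), with a summed level of 32114, 20873, 31844, 34232, 43894 and 21869 CPM against 26295, 21222, 27832, 31058, 35695 and 22609.7 CPM. Genes of hypoxia and glycolysis, relevant to avascular cartilage, had 14 of 17 passing, none counted and a median of 0.10. Hif1a was above other fibroblasts in all 6 libraries (1.16 (range 0.63 to 1.33)).

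No marker of smooth muscle, endothelium or leukocytes was counted as higher. Of 12 smooth muscle genes, 10 passed and none was counted (median -0.30), with a summed level of 1683, 1443, 1332, 1421, 1729 and 1154 CPM against 1642, 1474, 2142, 1627, 2670.3 and 1256 CPM, led by Tagln. Mylk had 0.53 (range -1.48 to 1.37) and was higher in 4 of 6 libraries. Of 12 endothelial genes 2 passed (median -1.14), with 93.0, 61.9, 45.2, 44.1, 44.7 and 37.2 CPM against 73.9, 66.5, 141, 112, 98.9 and 54.7 CPM, so the sum was higher in library 1. Pecam1, the most abundant, had -0.23 (range -1.01 to 0.98) and was higher in 3 of 6 libraries, while the medians of Cdh5, Kdr and Cldn5 were 0. Of 13 leukocyte genes, Cd74 alone passed (-1.93), with a summed 17.5, 147, 171, 50.9, 13.3 and 37.2 CPM against 43.9, 309, 212, 311, 122 and 176 CPM and a median of 0 for Ptprc.

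Of 8 glial genes, S100b alone passed and was higher, at 170.2, 167, 98.4, 99.1, 111 and 235 CPM against 42.0, 64.8, 39.3, 42.6, 30.5 and 58.5 CPM, a median log2 ratio of 1.61 with a lowest value of 1.21. Its summed list level was 174, 174, 105, 106, 124 and 252 CPM against 45.9, 69.3, 52.4, 50.6, 50.4 and 64.3 CPM. Cardiomyocyte and mesothelial genes had 0 of 10 and 0 of 8 passing, with summed levels of 15.8, 63.7, 12.8, 26.5, 16.9 and 20.0 CPM (against 22.8, 47.0, 34.7, 46.4, 47.4 and 16.3 CPM) and 1.75, 0.872, 1.83, 1.36, 0 and 0 CPM (against 0.590, 0.946, 3.38, 1.42, 2.80 and 1.84 CPM), led by Myl4 and Msln, and the medians of Myh6 and Msln were 0. Of 8 adipocyte and osteoblast genes, Fabp4 passed (-1.05), with a summed 418, 10.5, 47.1, 20.4, 50.8 and 289 CPM against 29.5, 11.2, 73.9, 101, 77.9 and 32.0 CPM, led by Fabp4 in the median. The sum was higher than in other fibroblasts in libraries 1 and 6, where Ibsp alone gave 384 and 212 CPM, and Adipoq had a median of 0. The part of these transcripts in the differences above was not tested.

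The GFP transcript of the CNC reporter was rare. A GFP UMI was found in 3 of 59, 4 of 92, 4 of 181, 2 of 183, 0 of 123 and 0 of 28 cartilage-like fibroblasts, and the counts of 0 allow shares of up to 2.44% and 10.7%. In other fibroblasts of the same libraries the shares were 3.73, 1.99, 1.86, 2.75, 0.215 and 0.240%. The share in the cartilage-like fibroblasts was thus higher in libraries 1 to 3, lower in library 4 and 0 in libraries 5 and 6. After thinning, library 3 went the other way (0.559% against 0.864%). In CPM, GFP was higher in library 2 alone (4.36 against 2.78 CPM). The labels give the reporter to 2 of the 6 mice, and no library is paired with a mouse. Pooled shares therefore include cells of mice without the reporter. Over all libraries, GFP was found in 1.95% (1.04% to 3.31%) of the cartilage-like fibroblasts. This stood beside 247 of the 12377 other fibroblasts, 4.25% of smooth muscle cells and 0.601% of leukocytes, with 8145.5, 6021, 7231 and 5050 UMIs as the median depths. Thinned to 3000 UMIs, 0.609% of the cartilage-like and 0.979% of other fibroblasts held GFP, beside 0.489% of leukocytes. A difference from other fibroblasts, or from the background of free RNA, was not detectable at this depth and with libraries not assigned to reporter mice.

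The cells were then set beside 4 other fibroblast populations within the same Dcn and Myh11 limits, each chosen by its own transcripts and outside the rule. Cells with at least 2 of Coch, Wif1 and Prss35 numbered 364, cells with both Pthlh and Cst6 numbered 180, cells with at least 2 of Hhip, Dio2 and Cpxm2 numbered 3047, and cells with all of Ly6a, Spon2 and Ccl11 numbered 231. Of the 666 cartilage-like fibroblasts, 28 (4.20%), 12 (1.80%), 96 (14.4%) and 0 also met these choices. The smallest library held 12, 10, 295 and 5 cells of the 4 populations.

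Cyp26a1, Spp1, Thbs4 and Col11a1 were higher in the cartilage-like fibroblasts than in all 4. The median over libraries of Cyp26a1 was 74.5 CPM in the cartilage-like fibroblasts and at most 0.151 CPM in the others, and that of Thbs4 was 70.1 CPM against 0 in each of the others. Spp1 had 1137 CPM, beside 29.3 CPM in Pthlh and Cst6 cells, 16.6 CPM in Hhip cells and 0 in the remaining ones. Col11a1 had 69.2 CPM and at most 9.91 CPM elsewhere. Each of these 4 genes was higher in the cartilage-like fibroblasts than in each population in all 6 libraries, which for Thbs4 rests on 2 UMIs in library 6.

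Other genes were shared. The Coch, Wif1 and Prss35 cells, for which Wif1 was used in the choice, had Scx at 74.5 CPM against 108 CPM, Hapln1 at 53.0 against 23.1 CPM and Col9a1 at 18.2 against 19.9 CPM. They also had Sox9 at 457 CPM, Gata4 at 135 CPM and Clu at 3409 CPM, where the cartilage-like fibroblasts had 325, 46.8 and 2511 CPM. Sox9 and Hapln1 were lower in the cartilage-like fibroblasts than in these cells in 5 of 6 libraries, and Gata4 in all 6. Cytl1 was shared instead with the Pthlh and Cst6 cells, at 2552 and 2025 CPM, and stood at 52.0 CPM in the Coch cells.

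**Figure D3:**
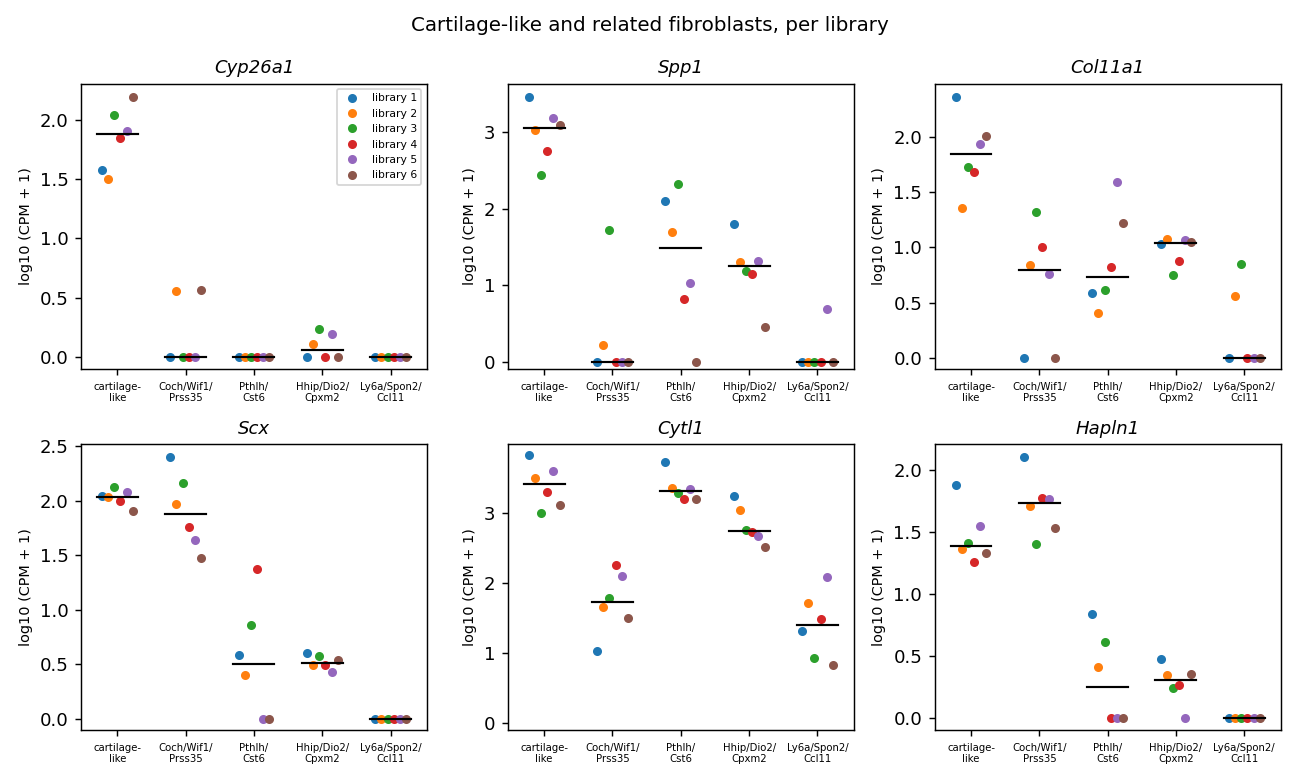
Expression of 6 genes, as log10 of CPM + 1, in cartilage-like fibroblasts and 4 other fibroblast populations named by the transcripts that chose them. Points are the 6 libraries and black bars their medians, and Cyp26a1, Spp1 and Col11a1 are highest in the cartilage-like fibroblasts while Scx and Hapln1 are shared with the Coch cells and Cytl1 with the Pthlh and Cst6 cells.

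The cells also varied among themselves along Ucma. In the 4 libraries with at least 10 cells on each side (2 to 5), cells with a Ucma UMI numbered 30, 85, 75 and 41 and cells without it 62, 96, 108 and 82. Median depths were 13334.5, 8284, 7842 and 6266 UMIs with Ucma and 11719, 8112.5, 7311 and 6250 without. Col9a1 stood at 25.6, 59.1, 60.6 and 33.8 CPM with Ucma and at 2.79, 16.7, 28.4 and 8.91 CPM without. Hapln1 (32.5, 33.9, 20.7 and 45.1 against 15.4, 15.5, 14.2 and 28.5 CPM) and Sox9 (381, 441, 402 and 680.4 against 243, 345, 322 and 426 CPM) were also higher in 4 of 4 libraries. Acan (0, 2.51, 1.59 and 3.76 against 5.58, 9.52, 14.2 and 7.12 CPM) was lower in 4 of 4. This rests on few UMIs, as the 238 cells with Ucma over all libraries held 4 Acan UMIs. Scx differed by measure, with fewer CPM in 4 of 4 libraries (72.1, 127, 97.2 and 56.4 against 127, 137, 98.1 and 148) but a larger share of cells with a UMI in 3 of 4 (40.0, 45.9, 40.0 and 29.3% against 32.3, 41.7, 34.3 and 42.7%). Ucma is part of the rule, and cells without it reach 3 genes through the other 5, so the rule may set part of these differences and they are only described.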

How the data were processed

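The deposited matrix gives, for 30716 barcodes, a UMI count per feature (31055 features), aligned by the authors to mm10 with Cell Ranger 6 according to their methods, while the matrix header names version 4.0.0. The counts were not normalized. The filters of their methods were used: genes per cell between 1000 and 5000 and UMIs between 1500 and 25000, limits not included, with a mitochondrial share under 20%. Libraries were split by barcode number and no mouse was assigned to any of them, so no test between genotypes was made. Analysis used python 3.11.15, numpy 2.4.6, scipy 1.17.1, pandas 2.3.3, scanpy 1.11.5 (scrublet) and matplotlib 3.10.9. Coordinates are 1-based from the GENCODE annotation of mm10.

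UMIs were summed per library, divided by the total (CPM), and a prior of 0.5 UMI of the smaller sum, expressed as CPM, was added to both before the log2 ratio. Genes passed with a median over libraries of at least 10 for the mean CPM of both kinds of cells. The rule genes, Dcn and Myh11 were left out. A gene counted as higher or lower past a log2 ratio of 1 or -1 in every library with at least 20 cartilage-like fibroblasts, which all 6 had. Medians of CPM and of ratios were taken separately. Smooth muscle cells had at least 5 Myh11 and fewer than 20 Dcn UMIs per 10000. Endothelial cells (Pecam1, Cdh5, Egfl7, Cldn5, Kdr) and leukocytes (Ptprc, Cd52, Tyrobp, Laptm5, Coro1a) were below both limits with at least 2 of the genes given, and 3 cells counted as both.

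The genes named in the text were taken from the rule genes, the 20 largest and 10 smallest median ratios among counted genes, every gene of the cartilage matrix and chondrocyte factor lists with a UMI in the cells, the 2 largest and 2 smallest of every other list among genes that passed, and Gata4, Gata6, Tgfbr1, Tgfbr2 and GFP. Fmod, Prelp, Frzb, Gli1, Eln, Dpt, Tnmd, Mkx, Ibsp, Sp7, Bglap2, Serpinf1, Tagln, Myl4, Matn1, Col10a1, Foxa2 and Nkx3-2 lie outside this rule. So do markers of other cell types that were at 0. All of these were named after their values were seen. The cells and the 30 gene lists were chosen with earlier results of these data known.

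Alternatives were at least 2 or at least 4 rule genes, thinning to 3000 UMIs (rule genes and comparison on thinned counts, Dcn and Myh11 limits on all UMIs), leaving out the 5% of cells with the highest scrublet scores, which the main result keeps, other fibroblasts weighted to the same depth in 5 bins, equal weight for each cell, a prior of 2 UMIs, a limit of 50 CPM or none, no upper limit on genes and UMIs, and leaving out each library. No result is given for the setting without upper limits on genes and UMIs. The calculation was tested on simulated data.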

Additional observations from a re-analysis of the deposited data

Results flagged for a closer look

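A signal of these cells was also counted outside the cells compared. Of 5744 barcodes that failed the filters, 49 otherwise met the rule for cartilage-like fibroblasts, with a median of 1020 UMIs, and 9 of them lay at or above an upper limit. Of 11929 filtered cells outside the Dcn and Myh11 limits, 24 (0.201%) held a UMI of at least 3 of the 6 rule genes, 18 of them with Myh11 at or above its limit and 8 with Dcn below its limit. No sample without these cells exists to compare with, and whether doublets or free RNA account for the 24 cells was not tested.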

How the results depend on the processing

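The share of 5.11% was 17.4% with at least 2 rule genes, 2.24% with at least 4, 3.26% after thinning and 4.42% in libraries 2 and 6 alone. It ranged from 4.82% to 5.32% with each library left out. The 43 higher genes became 9 with at least 2 rule genes, 93 with at least 4 (4 libraries had 20 cells), 16 with a limit of 50 CPM, 70 without one, 76 in libraries 1, 3, 4 and 5, 84 in libraries 2 and 6 and 24 without the cell with the most UMIs of each gene, and 44 to 60 with each library left out. The 30 lower genes became 2, 207, 77 after thinning (5 libraries), 16, 61, 46 without shared barcode sequences, 82, 80 and 84 under the same settings, and 29 to 54 with each library left out, the largest without library 6 (54) and library 1 (48). Fewer libraries or a lower limit ask less of a gene, and leaving out the top cell lowers ratios, moving the median of all genes from -0.08 to -0.19. The cause of the other shifts was not tested. Over the gene lists, 19 genes counted as higher became 4 with at least 2 rule genes and 11 at 50 CPM. They became 29 in libraries 2 and 6 and 24 in libraries 1, 3, 4 and 5. Without shared barcode sequences they numbered 19, without the top cell 12, and with each library left out 18 to 24. List genes counted as lower are not part of these numbers. GFP was found in 0.609% of the cells after thinning. Settings by shared barcodes, sets of libraries and top cells were chosen after seeing the data.

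Removing high doublet scores gave 47 higher and 29 lower genes, weighting to equal depth 37 and 20, equal weight for each cell 43 and 34, and a prior of 2 UMIs 33 and 25. Thinning gave 44 higher genes, of which 30 were among the 43. Of the 37 counted genes that the naming rule takes in, 8 were counted under all 17 settings run gene by gene and 0 changed sign. No paired analysis was possible between genotypes because the libraries are not assigned to mice. Every count that asks for all 6 libraries includes library 6 with its 28 cells. Whether this number of cells limits the counts was not tested. Genotype effects cannot be seen.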
